A study of Homo sapiens with 6 samples.

Results

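A set of 10 genes of the smooth muscle contractile apparatus were followed in the human ovarian cancer line A2780, in 3 RNA-seq libraries labelled GPT2si and 3 labelled GPT2sinc. They are the actin genes ACTA2 and ACTG2, the regulatory myosin light chain gene MYL9, the transgelin gene TAGLN, the calponin genes CNN1, CNN2 and CNN3, the tropomyosin genes TPM1 and TPM2, and the caldesmon gene CALD1. All 10 were found among the 60564 gene rows of the deposited count table, by a symbol that matched 1 row each, and all 10 were among the 17006 genes kept by the low-count filter. The genes were selected on their function and on the contrast between these same 6 libraries, in which TAGLN, ACTA2 and ACTG2 were already known to be higher with GPT2si. Their own differences between the groups are therefore given as a description, and nothing is read from how many of them passed a threshold.

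The labels give GPT2sinc and GPT2si as the genotype of the 2 groups and do not spell out the abbreviations. Both groups are the same cell line, and no other treatment, dose or time is named. GPT2, whose deficiency the series is about, encodes the mitochondrial alanine aminotransferase. Its transcript was at 94.96 ± 1.69 CPM (SD, n = 3) in GPT2si and 228 ± 8.57 CPM (n = 3) in GPT2sinc, so the libraries match their labels. Total counts ran from 41931162 to 50882329 per library. CPM, the usual depth-scaled counts, are scaled by the library totals and by TMM factors, which correct for differences in RNA composition.

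Smooth muscle cells contract when phosphorylated regulatory light chains let myosin pull on actin filaments. Tropomyosin runs along those filaments, and calponin, caldesmon and transgelin bind them and stabilise them or hold back the motor. Many of the genes are transcribed through serum response factor (SRF), which binds the CArG box, a DNA element with CC at its start, GG at its end and A or T between. SRF works with cofactors of the myocardin family, of which MRTFA and MRTFB (myocardin-related transcription factors) are held in the cytoplasm by monomeric actin. Nonmuscle cells, cancer cells among them, use the same genes in stress fibres.

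Most of the smooth muscle markers were at or near 0. Of 8 smooth muscle markers, 5 stayed under 1 CPM in each library, among them the smooth muscle myosin heavy chain gene MYH11 (0.415 ± 0.195 against 0.315 ± 0.164 CPM, GPT2si against GPT2sinc, SD, n = 3) and the myocardin gene MYOCD. The intermediate filament gene DES was at 0.305 ± 0.265 against 0.913 ± 0.188 CPM and did not pass the edgeR test described below. PLN, which encodes a regulator of the calcium pump, had 0 counts in each library. The summed level of the list was 68.9 to 69.8 CPM in GPT2si and 66.5 to 72.2 CPM in GPT2sinc, nearly all of it from LMOD1, a leiomodin that nucleates actin filaments, at 66.2 ± 0.979 against 65.6 ± 2.77 CPM. A2780 is an ovarian cancer line, but 6 of 9 epithelial markers stayed under 1 CPM in each library. They included the lineage factor gene PAX8 and the cadherin gene CDH1, and KRT7 and WT1 had 0 counts. The 12 fibroblast and pericyte markers were uneven, with sums of 3443 to 3572 CPM in GPT2si and 3384 to 3562 CPM in GPT2sinc. COL3A1, a fibrillar collagen gene, made up most of that (2586 ± 104 against 2559.8 ± 65.9 CPM). Only 2 of the 12 stayed under 1 CPM in each library, FAP and LUM. The fibroblast activation gene FAP had 4 counts in GPT2sinc 2 and 0 in the other libraries. The proteoglycan gene LUM was at 0.199 CPM in GPT2si and 0.263 CPM in GPT2sinc. DCN, another proteoglycan gene, was at 3.95 and 3.90 CPM in the same order. Of 11 tested fibroblast and pericyte markers 0 passed that test (before adjustment 0 at p under 0.05, 0 by DESeq2). The shares over all tested genes were 0.576% higher and 0.841% lower by edgeR, 10.3% and 9.27% before adjustment and 7.77% by DESeq2. The 6 endothelial markers summed to at most 0.658 CPM in any library. In bulk RNA, a change in the number of cells of a type and a change in RNA per cell cannot be told apart.

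Promoter sequences were taken for the members from RefSeq on GRCh38.p14, and are shown because SRF and the CArG box are the textbook link between these genes. Of the 10 members 8 had an entry, with 14 start sites in all, and TAGLN and MYL9 had none. Each window of 300 bases, from 250 before to 50 after a start, was searched for the CArG box on both strands. The full box was found in 2 of the 14 windows, those of ACTG2 and CNN2, and in 1.29% of 35116 windows of all genes. The window of 1 of the ACTA2 starts held 2 boxes that miss the full CArG box at 1 position. Such boxes were in 4 of the 14 windows, from ACTA2, ACTG2 and CALD1, and in 17.9% of all windows. The TEAD motif GGAATG, searched on both strands, was in 4 member windows (ACTA2, CNN3 and CALD1) and in 4928 of the 35116 windows of all genes. A match here is a run of letters and not a shown binding site. The 250 bases before the start are given below from 5′ to 3′ on the gene's strand, with CArG boxes in capitals (for ACTA2, the boxes with 1 mismatch).
ACTG2, chr2:73892758-73893007, plus strand: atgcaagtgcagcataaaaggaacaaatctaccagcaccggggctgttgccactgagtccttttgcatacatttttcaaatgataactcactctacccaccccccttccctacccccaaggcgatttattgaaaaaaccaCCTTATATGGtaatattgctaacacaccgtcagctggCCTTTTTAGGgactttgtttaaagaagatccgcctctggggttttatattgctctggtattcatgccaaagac
CNN2, chr19:1026358-1026607, plus strand: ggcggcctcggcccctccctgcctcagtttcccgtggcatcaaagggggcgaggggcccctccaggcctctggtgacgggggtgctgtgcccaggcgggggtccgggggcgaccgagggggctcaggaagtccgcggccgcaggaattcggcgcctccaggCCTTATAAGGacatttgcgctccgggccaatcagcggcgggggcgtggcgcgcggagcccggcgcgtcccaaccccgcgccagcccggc
ACTA2, chr10:88952774-88953023, minus strand: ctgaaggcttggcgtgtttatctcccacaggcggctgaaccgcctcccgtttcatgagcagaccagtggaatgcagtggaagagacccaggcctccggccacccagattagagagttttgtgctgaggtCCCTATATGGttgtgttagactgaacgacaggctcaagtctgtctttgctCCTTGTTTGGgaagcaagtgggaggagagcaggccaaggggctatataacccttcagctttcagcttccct
The ACTG2 boxes lay 110 and 73 bases before the start, the CNN2 box 89 bases before it, and the ACTA2 boxes 121 and 71 bases before it. ACTG2 and ACTA2 were among the 3 members with the largest fold changes, and CNN2 was not. CALD1, which also held boxes with 1 mismatch, was not among those 3 either. A link between the boxes and the fold changes was not tested.

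The actin genes of smooth muscle were higher with GPT2si. ACTA2 (ENSG00000107796; chromosome 10, 88935074 to 88991339, minus strand of GRCh38 in GENCODE 29), the alpha smooth muscle actin of vessels and myofibroblasts, was at 124, 139.9 and 118 CPM in GPT2si 1 to 3 and at 68.4, 74.9 and 76.5 CPM in GPT2sinc 1 to 3. The lowest GPT2si library was 1.54 times the highest GPT2sinc library. The log2 fold change was 0.80 (SE 0.09), from 73.2 ± 4.32 to 127 ± 11.5 CPM (SD, n = 3 each). ACTG2 (ENSG00000163017; chromosome 2, 73892314 to 73919865, plus strand), the gamma actin of visceral smooth muscle, was the least abundant member, at 13.4, 17.2 and 11.01 CPM in GPT2si and 5.90, 6.75 and 6.29 CPM in GPT2sinc. These stand for 502 to 673 counts against 271 to 314, and the groups did not overlap. Its log2 fold change was 1.13 (SE 0.18).

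Transgelin showed the largest fold change of the 10. TAGLN (ENSG00000149591; chromosome 11, 117199321 to 117204782, plus strand), which crosslinks actin and is one of the earliest markers of smooth muscle fate, was at 249.96, 269.9 and 195 CPM in GPT2si and at 96.3, 107 and 115 CPM in GPT2sinc. GPT2si 3 was the lowest of its group and still 1.69 times the highest GPT2sinc library. The mean was 238 ± 39.0 against 106 ± 9.43 CPM, a ratio of 2.24 and a log2 fold change of 1.17 (SE 0.13).

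**Figure D1:**
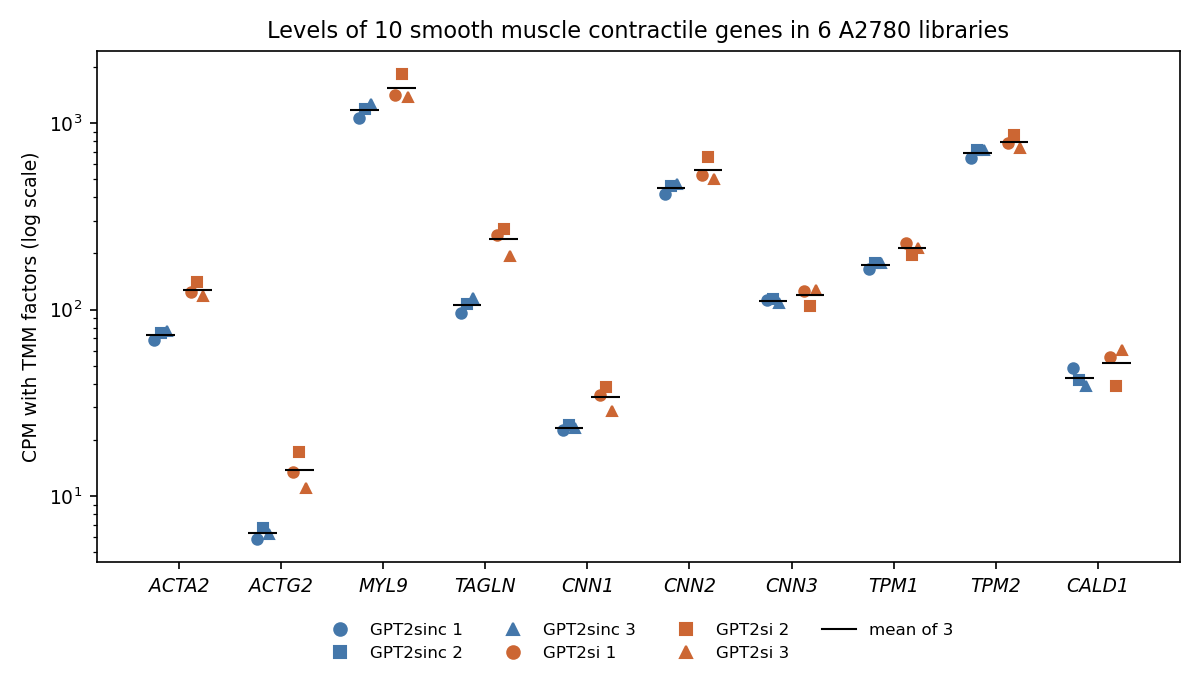
CPM with TMM factors (log axis) of the 10 genes in each library, with GPT2sinc in blue, GPT2si in orange, the symbol shape giving the replicate number and a line at the mean of 3. The groups are apart by the widest margin in TAGLN, ACTG2 and ACTA2, where the lowest GPT2si library is 1.54 to 1.69 times the highest GPT2sinc library, and they overlap in CNN3 and CALD1.

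The calponins, which bind actin and inhibit the myosin motor, are a smooth muscle form, CNN1, and the more widely expressed CNN2 and CNN3. CNN1, the smooth muscle calponin, was at 34.7, 38.2 and 28.6 CPM in GPT2si and at 22.5, 24.01 and 23.1 CPM in GPT2sinc, with no overlap and a log2 fold change of 0.54 (SE 0.12). CNN2 was at 526, 659 and 501 CPM against 418, 458 and 473 CPM (0.32, SE 0.11). The margin between its groups was small, with the lowest GPT2si library at 1.06 times the highest GPT2sinc library. CNN3, the acidic calponin, was at 126, 103.9 and 128 CPM against 112, 114 and 109 CPM (0.10, SE 0.10). Its groups overlapped because GPT2si 2 lay under each GPT2sinc library.

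MYL9, the regulatory light chain of smooth muscle and nonmuscle myosin II, was the member with the highest CPM. It was at 1416, 1834 and 1378 CPM in GPT2si and at 1069.6, 1191 and 1267 CPM in GPT2sinc, with no overlap. GPT2si 2 stood well above the other libraries, and the log2 fold change was 0.39 (SE 0.12).

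The tropomyosins differed less. TPM1 was at 228, 197 and 214 CPM in GPT2si and at 165, 178 and 178 CPM in GPT2sinc (log2 fold change 0.29, SE 0.08). TPM2, the beta tropomyosin, was at 781, 867 and 736 CPM against 649, 718 and 717 CPM (0.19, SE 0.09). Neither gene's groups overlapped, but in TPM2 the lowest GPT2si library was only 1.03 times the highest GPT2sinc library. CALD1, which encodes caldesmon, an actin-binding inhibitor of the motor, was at 55.9, 38.9 and 60.6 CPM against 48.8, 41.7 and 38.8 CPM (0.27, SE 0.16). Its groups overlapped, and both groups held a library near 39 CPM.

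Across the members, all 10 log2 fold changes were above 0, with a median of 0.36, while 48.0% of all tested genes were above 0 and their median was −0.01. The GPT2si libraries lay above the GPT2sinc libraries without overlap in 8 members and below in 0, where 14.9% of the tested genes lay above and 13.2% below. In the edgeR quasi-likelihood fit across all 17006 genes (Benjamini-Hochberg adjusted p under 0.05), 3 of the 10 passed, TAGLN, ACTA2 and ACTG2, all higher, where 0.576% of the tested genes were called higher and 0.841% lower. With DESeq2 6 of 10 passed, beside 7.77% of the genes it tested. Without GPT2sinc 1, GPT2sinc 2, GPT2sinc 3 or GPT2si 1 the count was 0, and it was 5 without GPT2si 2 and 4 without GPT2si 3. The members' log2 fold changes kept their sign in each of these fits. The same 4 left-out libraries bear on every edgeR call given here, since over all genes 4, 1, 5 and 2 passed without GPT2sinc 1, GPT2sinc 2, GPT2sinc 3 and GPT2si 1, against 241 with all 6 libraries.

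The families were then compared with their paralogs, the genes of the same protein family that were tested and are not members. Of 8 tested paralogs 0 passed the edgeR test in either direction (before adjustment 1 higher and 0 lower at p under 0.05, 0 by DESeq2). The shares over all tested genes were 0.576% higher and 0.841% lower by edgeR, 10.3% and 9.27% before adjustment and 7.77% by DESeq2. The paralogs' median log2 fold change was 0.13, and all 8 were above 0, as were all members, beside 48.0% of all tested genes. Their groups did not overlap in 2, with GPT2si above, beside 14.9% of all tested genes. TAGLN2, the transgelin of nonmuscle cells, was at 52.6 ± 6.38 against 52.1 ± 3.18 CPM (log2 fold change 0.01, SE 0.11). The cytoplasmic actin genes were the most abundant of the paralogs. ACTB was at 7617 ± 925 against 6154 ± 478 CPM (0.31, SE 0.11) and ACTG1 at 5229 ± 491 against 4917 ± 203 CPM (0.09, SE 0.09). The other tropomyosins TPM3 and TPM4 had log2 fold changes of 0.16 (SE 0.09) and 0.04 (SE 0.08), and the light chain genes MYL12A and MYL12B 0.11 (SE 0.08) and 0.19 (SE 0.09). The striated muscle actin gene ACTC1 and the neuronal transgelin gene TAGLN3 had 0 counts in each library.

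**Figure D2:**
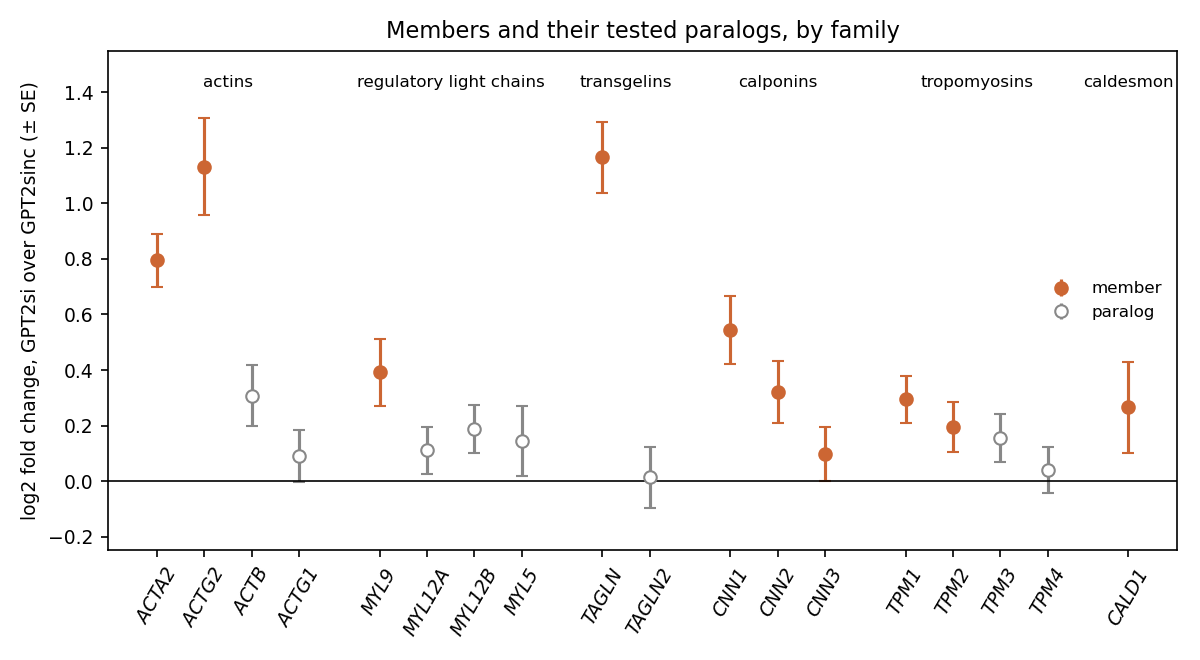
Log2 fold change of GPT2si over GPT2sinc from edgeR (points) with its SE (bars) for the members (filled) and their tested paralogs (open), grouped by protein family. TAGLN at 1.17 stands beside TAGLN2 at 0.01, and ACTA2 and ACTG2 at 0.80 and 1.13 beside ACTB and ACTG1 at 0.31 and 0.09.

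Levels were next set on a scale per length, as CPM per kilobase of each gene's longest coding transcript in GENCODE 29, so that genes could be compared with each other. In GPT2sinc the order of levels was TPM2 at 499, MYL9 at 417 and CNN2 at 205 CPM per kilobase, then ACTA2 at 54.3, CNN3 at 51.5, TAGLN at 49.0 and TPM1 at 43.9, and last CNN1 at 12.6, CALD1 at 10.1 and ACTG2 at 3.06. Among the 4 of the middle group the libraries overlapped for neighbours, with ACTA2 from 50.7 to 56.7, CNN3 from 50.3 to 52.5, TAGLN from 44.5 to 53.1 and TPM1 from 41.8 to 45.0 CPM per kilobase. In GPT2si TAGLN stood at 109.97 and ACTA2 at 94.25, and the libraries of this pair overlapped (89.9 to 125 and 87.1 to 104). CNN3 and TPM1 stood at 55.1 and 53.8 CPM per kilobase. With the length of all annotated exons in place of the longest transcript, MYL9 came before TPM2, and CNN3 and TAGLN came before ACTA2 in GPT2sinc. ACTA2 was then at 24.6 and CNN3 at 39.3 CPM per kilobase in GPT2sinc, and at 42.7 and 42.0 in GPT2si. The order of this pair thus depends on the length used in GPT2sinc, while in GPT2si ACTA2 came first under both lengths. CNN1, CALD1 and ACTG2 were last under both lengths.

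On the same scale, smooth muscle isoforms remained a small part of the actin pool and a large part of the transgelin pool. ACTA2 made up 1.48% ± 0.04 of the summed level of 6 actin genes in GPT2si and 0.998% ± 0.004 in GPT2sinc (SD, n = 3 each). ACTB held 62.1% ± 0.83 and 58.8% ± 0.90, and ACTG1 36.4% ± 0.79 and 40.1% ± 0.90. TAGLN held 76.9% ± 2.15 of the transgelin level in GPT2si and 60.1% ± 0.80 in GPT2sinc. For the tropomyosins the shares were closer, with TPM2 at 58.7% ± 2.62 against 57.5% ± 0.32 and TPM1 at 5.55% ± 0.54 against 5.06% ± 0.05. CNN1 was 5.55% ± 0.41 of the calponin level against 4.67% ± 0.16. These shares use the same libraries as the choice of members and were not tested.

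The members fell into 2 patterns within the GPT2si group. GPT2si 2 was the highest GPT2si library in 7 members and the lowest in the other 3, which were CNN3, TPM1 and CALD1. Those 3 are the members with the lowest GC content in their transcripts, from 41.6% to 45.9%, while the other 7 run from 51.8% to 60.5%. The same split was present over all genes of at least 5 CPM. In GPT2si 2, the median of 2578 genes with a GC content of 40% to 46% lay at −0.22 from the mean of the 6 libraries on the log2 scale, and the median of 3510 genes of 52% to 62% at 0.20. In GPT2sinc 1 these medians were 0.06 and −0.12, and in the other 4 libraries they lay between −0.04 and 0.09.

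Offsets fitted to GC content and transcript length were therefore put into the edgeR fit. With them the log2 fold change was 1.09 for TAGLN, 0.73 for ACTA2, 1.06 for ACTG2 and 0.47 for CNN1 (SE 0.07, 0.04, 0.13 and 0.07). Those of MYL9 and CNN2 were 0.32 and 0.24 (SE 0.05 and 0.04). TPM1 and CALD1 were at 0.29 and 0.32 (SE 0.05 and 0.09), and TPM2 at 0.12 (SE 0.05), lower than the 0.19 without offsets by over 1.5 times. CNN3 was at 0.09 (SE 0.06). The spread among the GPT2si libraries was smaller for several genes. ACTA2 then stood at 0.35, 0.40 and 0.35 above the 6-library mean in GPT2si 1 to 3, where it had stood at 0.36, 0.54 and 0.29. The groups did not overlap in 9 members with offsets, CNN3 being the exception, where 18.5% of all genes had GPT2si above. The margin was small in TPM2, with GPT2si 2 at −0.038 and GPT2sinc 2 at −0.042. GPT2si 2 was then the lowest GPT2si library for TPM2, where it had been the highest. In CALD1 GPT2si 2 was at −0.018 and GPT2sinc 1 at −0.040. The count past the test was 8 of 10, all but TPM2 and CNN3, but 13.9% of all genes were called in that fit.

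**Figure D3:**
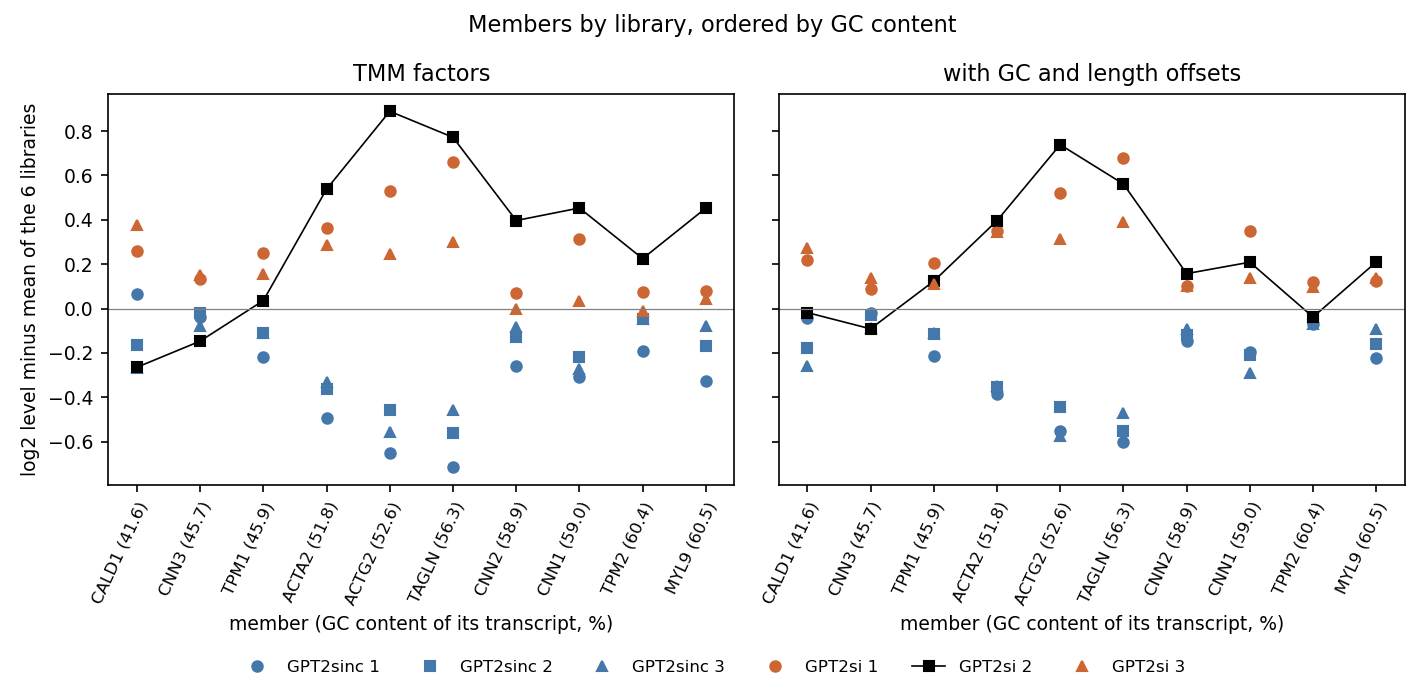
Log2 level of each member in each library minus its mean over the 6 libraries, with members ordered by the GC content of the longest coding transcript, scaled by TMM factors (left) and with GC and length offsets (right). GPT2si 2, in black and joined by a line, lies lowest of its group in CALD1, CNN3 and TPM1 on the left and closer to the other GPT2si libraries for ACTA2, CNN2 and MYL9 on the right.

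Single libraries moved several of the smaller differences. Without GPT2si 2 the log2 fold change was 0.18 for CNN2, 0.24 for MYL9 and 0.11 for TPM2, each lower by over 1.5 times, and 0.42 for CALD1 and 0.17 for CNN3, each higher by over 1.5 times. CNN2 and CNN3 were then nearly equal. Without GPT2si 3, CALD1 was at 0.14 and CNN3 at 0.05, and CNN3 was also at 0.05 without GPT2si 1. TPM1 stayed between 0.24 and 0.33. For TAGLN, ACTA2 and ACTG2 the values without any one library ran from 1.05 to 1.29, from 0.71 to 0.85 and from 0.94 to 1.27.

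Reads shared with other genes were checked against the annotation. TAGLN shares 446 exon bases (11.4% of its own) with PCSK7 on the opposite strand, and ACTA2 shares 380 with FAS and 516 with ACTA2-AS1. The libraries keep strand, but the sources used here do not give whether the counting used it. PCSK7, a proprotein convertase gene, was at 47.7 ± 8.88 against 41.4 ± 1.20 CPM (log2 fold change 0.20, SE 0.13) and did not pass, and FAS, a death receptor gene, was at 12.4 ± 2.995 against 9.28 ± 1.003 CPM (0.41, SE 0.19) and did not pass. ACTA2-AS1 had at most 10 counts in any library. The longest coding transcripts of ACTA2, TAGLN and 6 other members share no stretch of 50 bases with a transcript of another gene in GENCODE 29. ACTG2 shares 2 such stretches and CNN2 4, and no member shares a stretch of 100 bases. This search compared transcripts in the sense direction only, so it does not cover overlaps on the opposite strand such as those above.

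Genes of the same contractile programme outside the members were counted from a list of 26. Of 23 tested, 2 were higher and 0 lower by edgeR (before adjustment 3 higher and 3 lower at p under 0.05), and the median log2 fold change was 0.05. Over all tested genes, 0.576% were called higher and 0.841% lower by edgeR, 10.3% were higher and 9.27% lower at p under 0.05 before adjustment, and 7.77% were called in either direction by DESeq2. The unadjusted counts of this list are near that background. FLNA, the filamin that crosslinks actin, rose from 2746 ± 123 to 4032 ± 616 CPM (log2 fold change 0.55, SE 0.11, adjusted p = 0.0499), close to the threshold. VCL, the vinculin of focal adhesions, rose from 590.1 ± 11.5 to 772 ± 20.9 CPM (0.39, SE 0.07, adjusted p = 0.0458). Other genes of the list did not pass, among them the smoothelin gene SMTN (0.18, SE 0.12), the synemin gene SYNM (0.22, SE 0.10) and MYLK, the kinase that phosphorylates the regulatory light chain (−0.35, SE 0.14).

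Of 25 genes of the actomyosin motor and its regulators 1 was higher and 0 were lower by edgeR (before adjustment 5 and 3 at p under 0.05, 1 and 1 by DESeq2), with a median of 0.05, beside 0.576% and 0.841% of all tested genes by edgeR, 10.3% and 9.27% before adjustment and 7.77% by DESeq2. LIMK2, a kinase that inactivates the actin-severing cofilins, rose from 39.9 ± 3.51 to 59.6 ± 5.90 CPM (0.58, SE 0.11, adjusted p = 0.0458). Of the most abundant, the nonmuscle myosin heavy chain gene MYH9 was at 1319 ± 102 against 1107 ± 72.3 CPM (0.25, SE 0.09), and the cofilin gene CFL1 at 1320.2 ± 193 against 1142 ± 108 CPM (0.21, SE 0.12).

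SRF and its partners were measured as well. Of 10 tested factors 0 passed edgeR (before adjustment 2 higher and 0 lower at p under 0.05, 2 and 0 by DESeq2). The shares over all tested genes were 0.576% higher and 0.841% lower by edgeR, 10.3% and 9.27% before adjustment and 7.77% by DESeq2. SRF was at 105 ± 15.7 against 72.8 ± 5.73 CPM (GPT2si against GPT2sinc), with no overlap between the groups (0.53, SE 0.12, adjusted p = 0.0622, edgeR). Among the 10 factors, GPT2si lay above without overlap in 2 and below in 0, beside 14.9% and 13.2% of all tested genes. MRTFA was at 65.4 ± 7.72 against 58.7 ± 2.30 CPM and MRTFB at 23.6 ± 5.15 against 27.2 ± 1.59 CPM, and the groups overlapped in both. ELK1, an ETS-family partner of SRF, was the most abundant factor at 146 ± 20.9 against 145 ± 7.19 CPM (0.01, SE 0.11). MYOCD, the myocardin of heart and smooth muscle, had a mean of 0.0218 CPM in GPT2sinc and 0 counts in GPT2si.

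Among 30 targets of SRF with MRTF, 5 were higher and 0 lower by edgeR, beside the 0.576% and 0.841% of all tested genes, and the median was 0.24. The groups did not overlap with GPT2si above in 16 of the 30 and with GPT2si below in 3, beside 14.9% and 13.2% of all tested genes. Besides FLNA and VCL, the genes past the test were the matricellular genes CCN1 and CCN2 and the angiomotin-like gene AMOTL2 (90.9 ± 4.51 against 55.4 ± 2.72 CPM, log2 fold change 0.71, SE 0.09), which are also targets of YAP and TEAD. CCN2 was at 6.33 ± 0.514 against 2.42 ± 0.325 CPM (1.39, SE 0.17) and CCN1 at 16.6 ± 1.85 against 8.92 ± 1.05 CPM (0.90, SE 0.14). WDR1, which helps cofilin take filaments apart (0.43, SE 0.11), and the focal adhesion gene ZYX (0.40, SE 0.12) did not pass. The list holds ACTB and ACTG1 as well, and genes known from earlier results of these data to be higher. Without GPT2sinc 1, GPT2sinc 2, GPT2sinc 3 or GPT2si 1 the count past the test was 0, and it was 8 without GPT2si 2 and 4 without GPT2si 3.

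The other arm of SRF, the immediate early genes it switches on with ternary complex factors, had 2 of 16 tested genes higher and 0 lower by edgeR (before adjustment 5 and 1 at p under 0.05, 4 and 1 by DESeq2), with a median of 0.11. The shares over all tested genes were 0.576% and 0.841% by edgeR, 10.3% and 9.27% before adjustment and 7.77% by DESeq2. EGR1 and EGR3, zinc finger transcription factor genes, were higher (0.90, SE 0.10 and 1.21, SE 0.18), while FOS was at −0.16 (SE 0.18) and the most abundant genes MCL1 and BTG2 at 0.06 (SE 0.09) and 0.10 (SE 0.09). Of 17 tested TGF-beta ligands, receptors and SMADs, a pathway that induces ACTA2 and TAGLN in fibroblasts, 0 passed edgeR (before adjustment 1 higher and 1 lower at p under 0.05, 0 by DESeq2). Their median was −0.03, with TGFB1 at 0.21 (SE 0.12) and LTBP3, a latent TGF-beta binding protein gene, at 0.29 (SE 0.09).

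**Figure D4:**
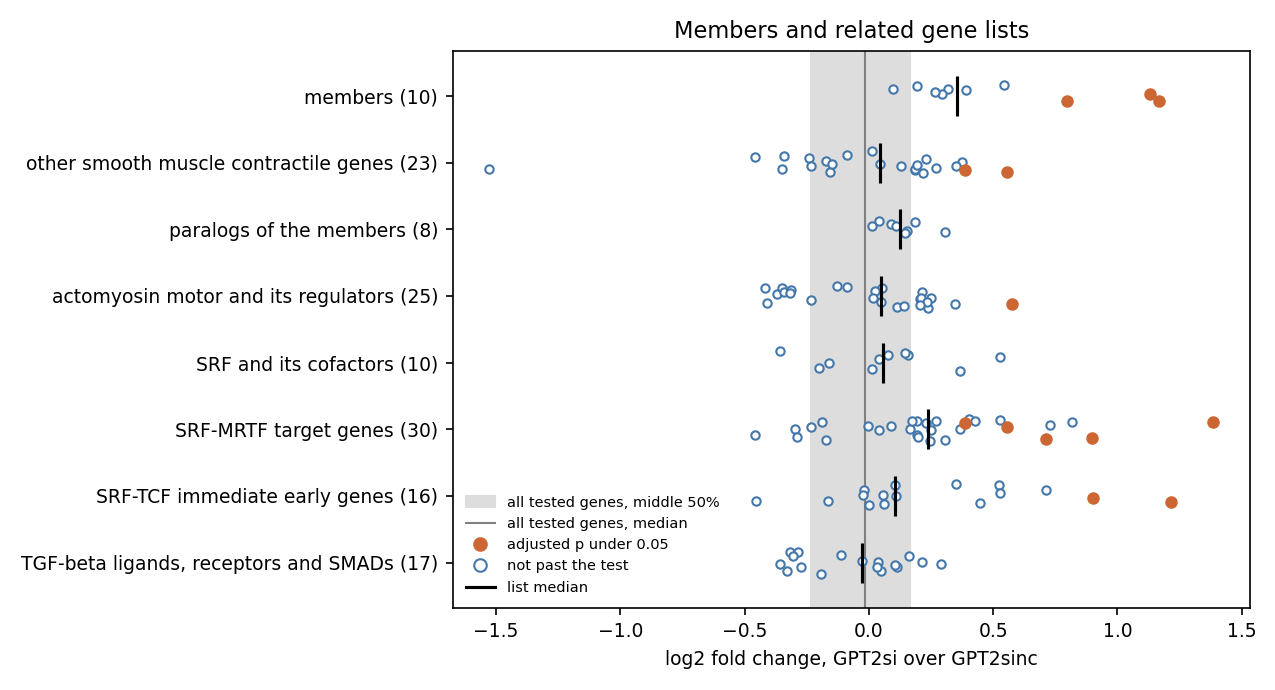
Log2 fold change of GPT2si over GPT2sinc for each tested gene of the members and of 7 related lists (number tested in parentheses), filled where the edgeR adjusted p was under 0.05, with a black line at each list's median. The grey band is the middle 50% of all tested genes, from −0.23 to 0.17. The medians of the members at 0.36 and of the SRF-MRTF targets at 0.24 lie to the right of it. Those of the other lists lie inside it. The members and the SRF-MRTF targets include genes already known from these data to be higher, and some genes, such as VCL and SRF, are in several lists.

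The genes whose pattern over the 6 libraries was most like that of TAGLN were found from log2 CPM, each centred on its own mean, by the root mean square difference over the libraries among 10210 other protein-coding genes of at least 5 CPM. ACTG2 was the closest of all at 0.10 and ACTA2 was at rank 9 with 0.20. Outside the members the closest 5 were ID3 at 0.12, ID1 at 0.12, SERPINB8 at 0.13, RRS1 at 0.14 and EGR1 at 0.15. ID1 and ID3 encode inhibitors of basic helix-loop-helix factors, SERPINB8 a serine protease inhibitor, RRS1 a ribosome assembly factor. CNN1 was at rank 86 with 0.32 and MYL9 at rank 433 with 0.40, while CALD1 and CNN3 were at ranks 4676 and 4686. These distances describe 6 libraries of 2 groups and mostly follow the difference between the groups.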

How the data were processed

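Poly(A)-selected, strand-keeping RNA-seq libraries of A2780 cells were measured, 3 per group; groups and replicate numbers come from the sample titles. The authors deposited raw whole-number read counts for each Ensembl gene, per the file headers. Per the submitters' processing notes the tools included CASAVA and StringTie, with no version. Aligner, counter, strand setting and genome build were not given in the sources used here. Of the 60564 rows, 60295 matched a symbol; 0 columns were left unmapped. Total counts were 41931162 to 50882329; 3 counts equal 0.0590 to 0.0715 CPM. The libraries carry PCR copies, so this floor covers counting error only. Whether the libraries are separate cultures is not in the labels; p-values reflect only how these libraries vary, which may be technical. No libraries were duplicates (chi-square per degree of freedom at least 8.23 within groups).

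Groups were compared with edgeR 4.0.16 (glmQLFit, glmQLFTest; R 4.3.3), TMM factors, filterByExpr and group as the only term, with Benjamini-Hochberg adjustment over 17006 genes and a threshold of 0.05. SEs come from the F statistic. The script was tested on simulated data. It recovered 37.3% of 1.5-fold, 63.2% of 2-fold and 90.4% of 4-fold changes, and 6.39% of its calls were false. A gene not past the test may therefore still differ. Lengths, GC content and positions are from GENCODE 29 (GRCh38), promoters from RefSeq.

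The members and lists were chosen with earlier results of these data known. Named genes are the members, GPT2, and from each other list the genes past the test (up to 6) and the 2 most abundant, up to 4 markers per cell type, and the 5 patterns most like TAGLN; any other gene given with values was named after its values were seen. Alternatives were DESeq2 1.42.0, its size factors or upper-quartile factors put into edgeR, a fit with no low-count filter, at least 1 CPM in 3 libraries, a replicate block, offsets from loess fits (span 0.5) on GC content and length, and leaving out each library.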

Additional observations from a re-analysis of the deposited data

How the results depend on the processing

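In each of the 13 alternatives each member's log2 fold change stayed above 0. The count of all genes past the test, 241 with TMM factors and filterByExpr, was 44 without a low-count filter, 1056 with DESeq2 and 2334 with GC and length offsets, and 1 to 836 when one library was left out. The count of members was 6 with DESeq2 and 8 with the offsets, and 0 to 5 with one library left out. The count of SRF-MRTF targets was 3 with DESeq2 size factors, 2 without a filter, 9 with DESeq2, 14 with the offsets (13 higher and 1 lower) and 0 to 8 with one library left out. ACTG2 did not pass without a filter (adjusted p = 0.0604, edgeR). The cause of these shifts was not tested.

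With the replicate number as a block, 558 genes, 4 members (CNN1 joined) and 6 SRF-MRTF targets passed. Deviations of same-numbered libraries correlated at 0.29, 0.24 and −0.39, and not each library correlated best with its own number, so the numbers were not taken as a pairing. Scaling moved the median of all genes by less than 0.1. At these depths, ACTG2 rests on 271 to 673 counts per library and the other members on at least 1005.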

Other observations

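Some genes of striated muscle were transcribed in A2780 in both groups. TNNT1, the troponin T of slow skeletal muscle, was at 500.5 ± 63.2 against 484 ± 29.7 CPM (GPT2si against GPT2sinc) (log2 fold change 0.05, SE 0.10), above TPM1 and TAGLN on the CPM scale. TNNC1, the troponin C of heart and slow muscle, was at 61.7 ± 4.99 against 62.9 ± 5.57 CPM. TNNI3, the cardiac troponin I, was at 15.2 ± 2.04 against 20.7 ± 0.893 CPM, with no overlap between the groups (−0.45, SE 0.13, adjusted p = 0.109, edgeR). MYH7 and MYOG had 0 counts in each library. The 12 markers of striated muscle summed to 531 to 662 CPM in GPT2si and 535 to 604 CPM in GPT2sinc. Among the 8 tested, GPT2si lay above without overlap in 1 and below in 2, beside 14.9% and 13.2% of all tested genes. Of these 8, 0 passed edgeR (before adjustment 1 higher and 3 lower at p under 0.05, 0 and 1 by DESeq2). The shares over all tested genes were 0.576% higher and 0.841% lower by edgeR, 10.3% and 9.27% before adjustment and 7.77% by DESeq2.

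Among epithelial markers, the keratin genes KRT8 and KRT18 were the ones with most counts, at 38.4 ± 3.996 against 31.7 ± 0.688 CPM and 31.2 ± 4.17 against 24.7 ± 0.682 CPM. The groups did not overlap in either gene and neither passed edgeR (log2 fold changes 0.27, SE 0.11 and 0.33, SE 0.12). Among the 4 tested epithelial markers, GPT2si lay above without overlap in 2 and below in 0, beside 14.9% and 13.2% of all tested genes. Before adjustment 2 were higher and 0 lower at p under 0.05 by edgeR, beside 10.3% and 9.27% of all tested genes. The summed level of the 9 markers was 64.7 to 80.8 CPM in GPT2si and 57.6 to 60.4 CPM in GPT2sinc. Of the leukocyte markers, CD3E had 0 counts in each library and PTPRC a mean of 0.0398 CPM in GPT2si and 0 counts in GPT2sinc.

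Myosin heavy chain genes differed in sign. MYH9 was at a log2 fold change of 0.25 (SE 0.09). MYH10, the nonmuscle heavy chain IIB, was at −0.37 (SE 0.11), from 397 ± 24.6 to 307 ± 43.3 CPM. Neither gene's groups overlapped, and neither gene passed edgeR. Among the 25 genes of the motor and its regulators, GPT2si lay above without overlap in 5 and below in 4. Over all tested genes these shares were 14.9% and 13.2%. The difference between MYH9 and MYH10 was not tested.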
